A study of Mus musculus with 6 samples.

Results

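The genes described here are the 4 that encode the β subunits of voltage-gated calcium channels (Cacnb1 to Cacnb4) and the 4 that encode their α2δ subunits (Cacna2d1 to Cacna2d4). They were chosen by name, and all 8 were found among the 54281 genes of the count table. They were measured in 6 libraries of GLUTag cells, a mouse line of hormone-producing gut cells that releases GLP-1 and stands in for the intestinal L-cell. All 6 wells received the same treatment, namely 48 h of growth in low glucose medium (1 g/L) with 10% FBS. The wells differ by plate and passage alone, with 3 at passage 23 on plate 1 and 3 at passage 27 on plate 2, so these 2 factors cannot be told apart and the wells of a plate may share a culture.

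The libraries were made with a kit that reads the 3′ end of polyadenylated transcripts, so a count stands for a transcript and does not grow with transcript length. Levels of different genes are therefore compared in CPM, the count of a gene scaled by the total count of its library. How completely 3′ ends are captured may still differ between genes. This was not tested, and comparisons between genes assume that it is alike. The total count lay between 21399987 and 36488198, and 3 counts, the upper limit that a count of 0 allows, correspond to between 0.0822 and 0.14 CPM. This limit covers counting error only. On plate 2 the columns could not be matched to a single replicate number, so each is called here after its total count (lowest, middle or highest). The middle-total library stands apart from the other 2 of its plate over many genes. For several values of the β and α2δ genes that rest on it, the value without it is also given. All 12 markers of enteroendocrine cells had at least 1 CPM in every library. So had 5 of 6 markers of neurons, several of which endocrine cells also express. The other neuronal marker, Rbfox3, had 0.328 ± 0.144 CPM (SD, n = 6), and all 6 together had between 545.8 and 681.7 CPM per library. At least 1 CPM in every library was found for 0 of 6 markers of smooth and cardiac muscle, 0 of 6 of leukocytes, 1 of 6 of enterocytes, 1 of 6 of fibroblasts, 1 of 6 of goblet and Paneth cells and 2 of 6 of skeletal muscle. The goblet cell marker Tff3 had 37.8 ± 2.42 CPM, the enterocyte marker Vil1 2.13 ± 0.73 and the fibroblast marker Col1a2 5.87 ± 0.93 CPM (each SD, n = 6). Those of skeletal muscle are given below. In bulk RNA, fewer cells with a transcript and less transcript per cell cannot be told apart.

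High-voltage-activated calcium channels consist of a pore-forming α1 subunit with a β and an α2δ subunit attached. The β subunit is a cytosolic protein that binds the loop between the first pair of repeats of the pore, promotes its transport to the plasma membrane and shifts its gating. The α2δ subunit is an extracellular, membrane-anchored glycoprotein that raises the number of channels at the surface and at release sites, and the products of Cacna2d1 and Cacna2d2 are the binding sites of gabapentin and pregabalin. In endocrine cells, calcium entry through these channels couples depolarisation to the exocytosis of hormone granules.

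Since reads come from the end of the transcript, the last 30 bases of each gene are shown, read from the GENCODE M21 transcript with the best APPRIS rank (the longest where ranks were equal). The hexamer AATAAA, the canonical polyadenylation signal, is in capitals where it was found on the strand of the transcript.
Cacnb1: cgcagttctgtcctttgcggccacctcctg
Cacnb2: gttgctccaatagcaatggcatgcaatcaa
Cacnb3: gtcatctccAATAAAacaccacgcacagtc
Cacnb4: atatAATAAAtgaaaaaaaaaacacagaaa
Cacna2d1: attcagAATAAAagtttatcattgaaagtc
Cacna2d2: gctcaacggagaatataaacaaaaaaaaaa
Cacna2d3: ctttttaAATAAAgtatattaaaatcataa
Cacna2d4: aaccacctcaAATAAAaggcttcaacagca

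The hexamer was present in 5 of the 8 windows, with 14 to 20 bases between it and the end, and in 50.8% of the windows of the same length from 21864 protein-coding genes. Neither AATAAA nor the variant ATTAAA was found for Cacnb1, Cacnb2 and Cacna2d2, as for 37.9% of all these genes. The chosen transcripts of Cacnb2 and Cacna2d2 end before the annotated gene ends, at 14987908 on chr2 and 107529343 on chr9. For them the absence describes the chosen transcript and not the end of the gene. Several genes have more than 1 annotated end: Cacna2d1 has 6 among 8 transcripts, Cacnb1 and Cacnb2 have 4 each, Cacna2d2 has 3 and Cacnb3 has 1. The counts are sums over all transcripts of a gene, so these windows show where reads can arise and not which end was used. On GRCm38 the windows of the most abundant genes lie at chr5:16374475-16374504 (plus strand, Cacna2d1) and chr9:107528964-107528993 (plus strand, Cacna2d2), and those of the leading β genes at chr2:14986182-14986211 (plus strand, Cacnb2) and chr15:98644500-98644529 (plus strand, Cacnb3).

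In GLUTag cells 7 of the 8 genes were detected throughout, and each family was led by a pair of genes at similar levels. Cacna2d2 and Cacna2d1 were the highest, at 153.8 ± 38.7 and 141.7 ± 25.9 CPM (SD, n = 6). Cacnb2, Cacnb3 and Cacna2d3 formed a middle group between 24.0 and 25.9 CPM on average, followed by Cacnb1 and Cacnb4. Cacna2d4 stayed at the detection limit. At least 1 CPM in every library was reached by these 7 genes, and by 22.8% of all genes in the table, which include noncoding genes. Of 21864 protein-coding genes, to which all 8 belong, it was reached by 11272.

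**Figure D1:**
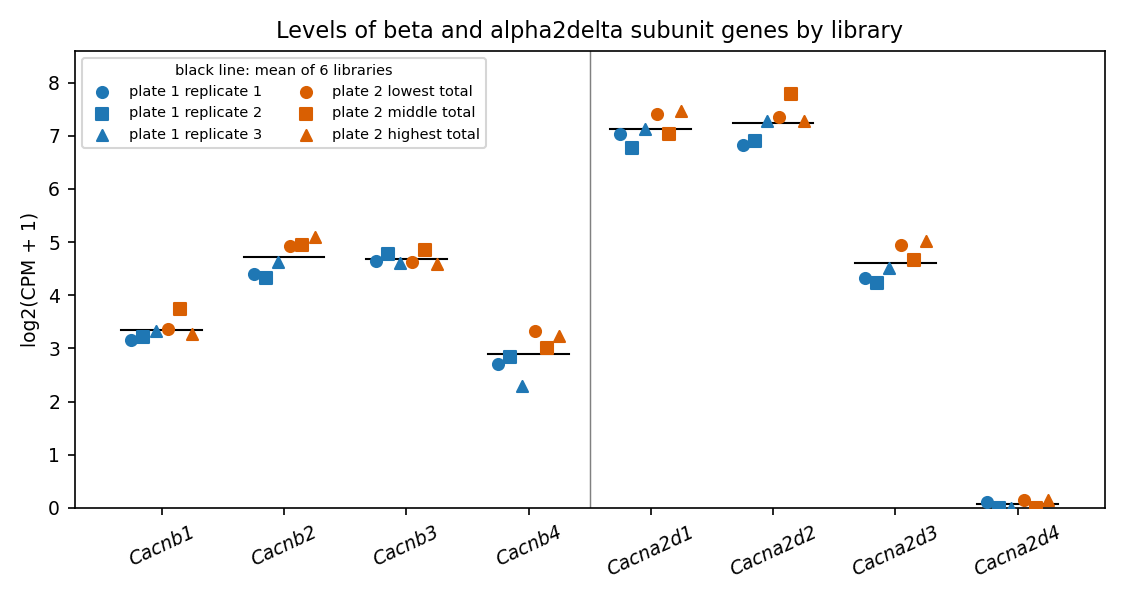
Level of each gene in each library on the log2(CPM + 1) scale, with plate 1 in blue, plate 2 in orange and the black line at the mean of 6 libraries. Cacna2d1 and Cacna2d2 lie above 107 CPM in every library, and Cacna2d4 lies at 0.11 CPM or less.

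Cacna2d2, the gene mutated in the ducky mouse, had 113.2, 118.7 and 153.2 CPM in replicates 1, 2 and 3 of plate 1 and 163.2, 221.1 and 153.5 CPM in the lowest-, middle- and highest-total libraries of plate 2. Its highest value was that of the middle-total library, and its mean was 140.4 CPM without it. The gene spans chr9:107399612-107529343 on the plus strand. Cacna2d1, the widely expressed member of the family, had 129.7, 107.5 and 138.2 CPM on plate 1 and 169.1, 130.3 and 175.4 CPM on plate 2, in the same order. In the middle-total library it was the lowest of its plate, and within the range of plate 1. The gene spans chr5:15934691-16374511 on the plus strand.

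Cacna2d2 and Cacna2d1 did not differ by more than their scatter. On the log2 scale Cacna2d2 stood 0.10 ± 0.36 (SD, n = 6) above Cacna2d1 on average, being higher in 3 of 6 libraries and a range from -0.19 to 0.76 (exact two-sided sign-flip permutation test, p = 0.6875, adjusted p = 0.75 over 12 pairs). Without the middle-total library the mean difference was -0.029, so the sign of this difference rests on that library.

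Cacna2d3, which is expressed mainly in the nervous system, had 18.9, 17.7 and 21.96 CPM on plate 1 and 29.7, 24.4 and 31.4 CPM on plate 2. It was lower than Cacna2d1 by 2.52 ± 0.12 (SD, n = 6) and lower than Cacna2d2 by 2.62 ± 0.30 (SD, n = 6) on the log2 scale. Both differences held in 6 of 6 libraries, with an exact permutation p of 0.03125 (0.0375 after adjustment). The gene spans chr14:28904943-29721864 on the minus strand. Cacna2d4, known from the retina, had 2, 0 and 0 counts on plate 1 and 3, 0 and 4 counts on plate 2, or 9 counts in all. Just 1 library exceeded 3 counts, and expression was not detectable above the counting limit at this depth. For its 3 comparisons the same exact permutation p of 0.03125 says that the other α2δ genes were detected in every library.

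Among the β genes, Cacnb2, the main β gene of the heart, had 20.2, 19.1 and 23.6 CPM on plate 1 and 29.4, 29.9 and 33.2 CPM on plate 2. Every plate 2 library was above every plate 1 library, as for 35.2% of the 15669 genes compared between the plates. Cacnb3, found in neurons, smooth muscle and endocrine cells, had 23.9, 26.5 and 23.4 CPM on plate 1 and 23.7, 27.9 and 22.9 CPM on plate 2. Its coefficient of variation was 8.17% in this unit, against a median of 20.6% over 7003 genes between 5 and 50 CPM. It was the lowest of the 7 detected genes in this unit but not with TMM scaling, where it was 13.6%, against 11.5% for Cacna2d1 and 13.1% for Cacnb2. Cacnb2 spans chr2:14603088-14987908 and Cacnb3 spans chr15:98630840-98644529, both on the plus strand.

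Cacnb2 and Cacnb3 were not separated over the 6 libraries, with Cacnb2 0.04 ± 0.35 (SD, n = 6) above Cacnb3 on the log2 scale and higher in 4 of 6 (exact permutation p = 0.78125, also after adjustment). The log2 difference lay between -0.45 and 0.01 in the plate 1 libraries and between 0.10 and 0.52 in the plate 2 libraries, without overlap. Such a gap between the plates was found in 4 of the 12 pairs within the families. The others were Cacnb3 with Cacnb4, Cacna2d1 with Cacna2d3 and Cacna2d3 with Cacna2d4. In the last pair Cacna2d4 was at the detection limit, so the difference mainly follows the CPM of Cacna2d3. With TMM scaling the levels of Cacna2d3 overlapped between the plates. Pairs of other genes were not examined, so how common such a gap is among pairs is not known. Single genes are a different measure. Of these, with TMM scaling, 12.8% were higher and 12% lower in every plate 2 library than in every plate 1 library.

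Cacnb1, the β gene of skeletal muscle, had 7.92, 8.26 and 9.02 CPM on plate 1 and 9.33, 12.4 and 8.69 CPM on plate 2. The middle-total library was the highest, and without it the mean fell from 9.27 to 8.64 CPM. Among the 6 markers of skeletal muscle, Acta1 had 4.29 ± 0.69 and Mylpf 1.92 ± 0.13 CPM (each SD, n = 6), Ckm had 37 counts in all, Myh1, Myh4 and Tnnt3 had no count in any library, and the muscle pore gene Cacna1s had at most 3 counts. Cacnb4, the gene of the lethargic mouse, had 5.54, 6.14 and 3.93 CPM on plate 1 and 9.04, 7.05 and 8.41 CPM on plate 2. Its counts lay between 84 and 307 per library. Cacnb1 spans chr11:98001508-98023034 and Cacnb4 spans chr2:52428320-52676831, both on the minus strand.

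Each of Cacnb2 and Cacnb3 exceeded each of Cacnb1 and Cacnb4 in 6 of 6 libraries, by 1.33 to 1.82 log2 units on average. Each of these 4 pairs had an exact permutation p of 0.03125 and an adjusted p of 0.0375. Cacnb1 exceeded Cacnb4 in 6 of 6 libraries as well, by 0.44 ± 0.39 (SD, n = 6) with the same p, but by as little as 0.04 in the lowest- and highest-total libraries of plate 2. In the latter the counts were 317 and 307. In all, 10 of the 12 pairs within the families passed the test at an adjusted p under 0.05, and 0.03125 is the smallest p that 6 libraries allow. The p-values measure only the spread between these libraries, which may be technical within a plate. A difference in capture between genes that is the same in every library would pass this test as well.

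In the order of all 8 genes, Cacna2d1 was above Cacnb2 by 2.41 ± 0.18 (SD, n = 6) on the log2 scale. Cacnb3 could not be ordered against Cacnb2 or against Cacna2d3, being above Cacna2d3 by 0.07 ± 0.38 (SD, n = 6) and in 4 of 6 libraries. Cacnb2 was not compared with Cacna2d3. Cacna2d3 was above Cacnb1 in 6 of 6 libraries, by 1.27 ± 0.32 (SD, n = 6). Among the 12360 genes that reached 1 CPM throughout, Cacna2d2 and Cacna2d1 ranked 1076 and 1167 by mean level, Cacnb2, Cacnb3 and Cacna2d3 ranked 5528, 5693 and 5795, and Cacnb1 and Cacnb4 ranked 8849 and 9707.

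The composition of each family was then described as the share of a gene in the summed CPM of its family, which does not depend on library scaling. Cacna2d1 and Cacna2d2 together made up 92.5 ± 0.83% (SD, n = 6) of the α2δ sum, with 44.6 ± 5.37% and 47.9 ± 5.99% each, and Cacna2d3 made up 7.49 ± 0.82%. Their joint share was between 91.2% and 93.5% in every library, while the division between the pair shifted in the middle-total library. There Cacna2d2 had 58.8% and Cacna2d1 34.7%, against 42.6% to 48.9% and 44.1% to 49.5% in the other 5 libraries. Without it the mean shares were 45.7% for Cacna2d2 and 46.6% for Cacna2d1, in the opposite order.

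In the β family, Cacnb2 and Cacnb3 together made up 76.1 ± 1.47% (SD, n = 6). Cacnb1 had 13.9 ± 1.46% and Cacnb4 9.95 ± 2.11%. The share of Cacnb3 was between 39.0% and 44.2% on plate 1 and between 31.3% and 36.2% on plate 2, which is given as a description with no test. The share of Cacnb2, the gene with the highest mean, was 35.4 ± 3.79% on plate 1 and 41.7 ± 3.38% on plate 2 (SD, n = 3 each, exact two-sided permutation p = 0.2, where the smallest possible is 0.1). For Cacna2d2 it was 46.9 ± 3.21% and 48.8 ± 8.75% (SD, n = 3 each, exact permutation p = 0.9). The higher mean on plate 2 rests on the middle-total library (58.8%). In the lowest- and highest-total libraries the share was 45.1% and 42.6%, both below the plate 1 mean.

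**Figure D2:**
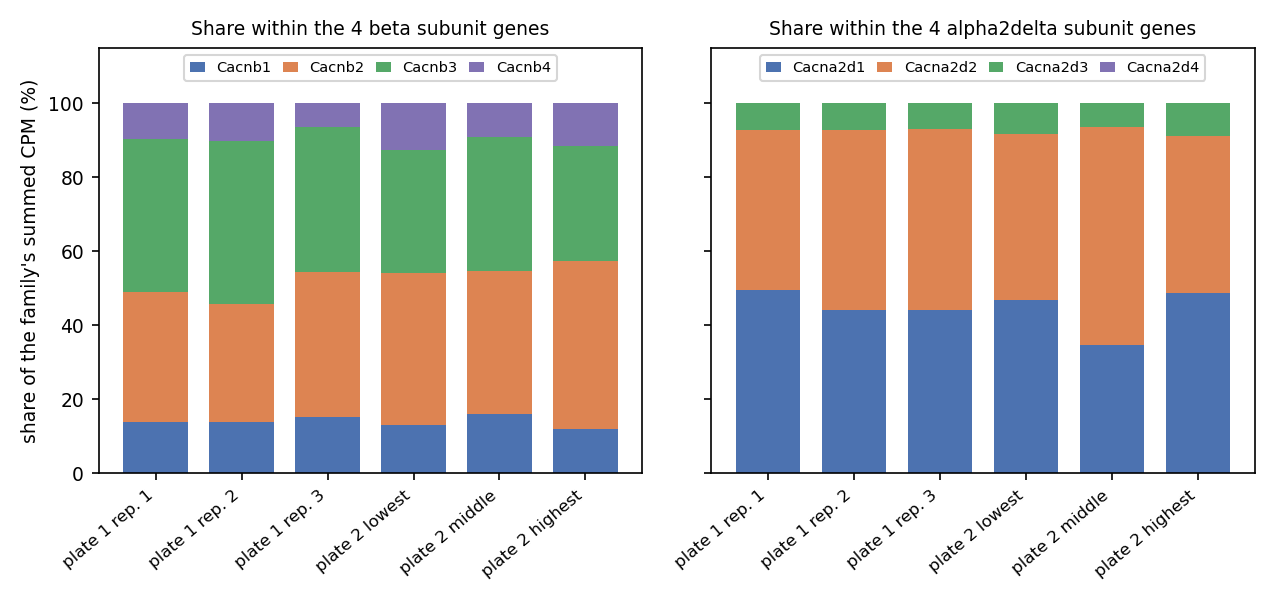
Share of each gene in the summed CPM of its family, in percent, with 1 bar per library and the 4 genes stacked. Cacna2d1 and Cacna2d2 fill over 91% of every α2δ bar, and in the middle-total library of plate 2 the boundary between them lies lowest, at 34.7%.

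To relate the auxiliary subunits to the pores they bind, the summed CPM of each family was set against that of the 7 genes for high-voltage-activated pores. The pore sum was 106.7 ± 24.2 CPM (SD, n = 6). It came from 5 genes, led by Cacna1a (P/Q-type) with 34.9 ± 9.05 CPM and Cacna1d (L-type) with 26.8 ± 5.18 CPM, and followed by Cacna1c (L-type) with 19.3 ± 5.91, Cacna1b (N-type) with 13.6 ± 2.53 and Cacna1e (R-type) with 11.8 ± 5.16 CPM (each SD, n = 6). Cacna1s and Cacna1f had at most 5 counts in any library.

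The α2δ sum was 319.6 ± 56.1 CPM (SD, n = 6) and exceeded the pore sum 3.04 ± 0.27-fold (SD, n = 6), with a range from 2.67 to 3.34. The β sum was 66.6 ± 8.38 CPM (SD, n = 6) and stood at 0.643 ± 0.109 of the pore sum (SD, n = 6), with a range from 0.511 to 0.807. The α2δ sum was 4.78 ± 0.42 times the β sum (SD, n = 6). Each of these 3 ratios lay on the same side of 1 in 6 of 6 libraries (exact two-sided sign-flip permutation p = 0.03125, the same after adjustment over the 3). On plate 1 and plate 2 the ratio of α2δ to pores was 3.10 and 2.98 and that of β to pores 0.684 and 0.601. These are ratios of 3′ counts, which stand for ratios of transcripts only if capture is alike between genes. Proteins were not measured here.

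**Figure D3:**
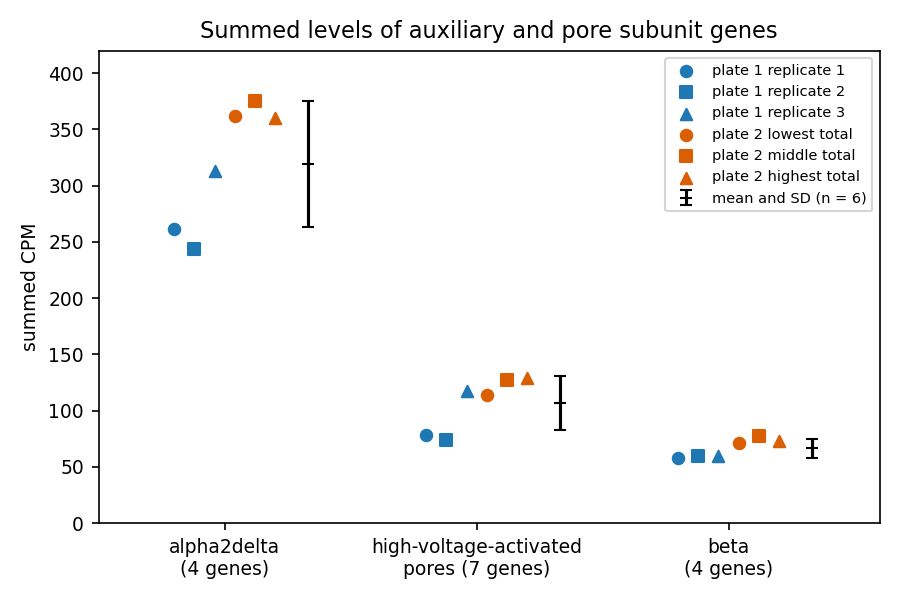
Summed CPM of the 4 α2δ genes, the 7 genes for high-voltage-activated pores and the 4 β genes in each library, with the mean and SD of 6 libraries in black. The lowest α2δ sum, 243.9 CPM, lies above the highest pore sum, 128.9 CPM, and in every library the β sum lies below the pore sum.

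Between the plates, no β or α2δ gene passed the test. The plates were compared with edgeR's quasi-likelihood test with TMM scaling on 15669 genes, of which 0.185% had an adjusted p under 0.05 (0.0128% higher and 0.172% lower on plate 2). At an unadjusted p under 0.05 the number was 2520 of all genes and 0 of the 7 genes described here that were tested. Cacna2d4 was removed by the filter on low counts. The share of all genes that passed depended on the libraries kept. Without the middle-total library 1911 of 15894 genes passed, and without plate 1 replicate 1 or the lowest-total library of plate 2 the number was 0. Cacnb2 had a log2 fold change of 0.29 (plate 2 over plate 1, standard error 0.13, 95% interval -0.01 to 0.60, adjusted p = 0.327 from edgeR). That of Cacna2d3 was 0.28 (standard error 0.15, 95% interval -0.05 to 0.61, adjusted p = 0.392). Cacnb3 alone had a negative estimate with TMM, at -0.25 (95% interval -0.58 to 0.08, adjusted p = 0.446), which turned to 0.015 with no scaling beyond the total count. Changes of the sizes inside these intervals cannot be told from no change with 3 libraries a plate.

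Of the rest, Cacnb4 was at 0.38 (95% interval -0.13 to 0.88), Cacna2d2 at 0.22 (-0.17 to 0.61), Cacna2d1 at 0.07 (-0.24 to 0.38) and Cacnb1 at 0.01 (-0.42 to 0.43), with adjusted p from 0.457 to 0.993 by edgeR. Without the middle-total library, Cacna2d2 was at -0.0034 and Cacnb1 at -0.21. The lowest adjusted p of the β and α2δ genes there, that of Cacnb3 at -0.39, was 0.0534 by edgeR, in a fit where 1911 of 15894 genes passed. With no scaling beyond the total count, all genes together shifted by a median of 0.299 log2 units, against 0.031 with TMM, and the Bc1 transcript alone took 9.74% to 11.97% of the counts on plate 1 and 3.44% to 4.77% on plate 2. The part of Bc1 in the shift was not tested. Under that setting Cacnb2 passed the threshold (0.56, adjusted p = 0.0442 from edgeR), as did 9.46% of all genes (9.01% higher on plate 2).

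In CPM over the total count, 4 of the 7 genes (Cacnb2, Cacnb4, Cacna2d2 and Cacna2d3) were higher in every plate 2 library than in every plate 1 library, as were 35.2% of all genes tested. With TMM scaling this held for Cacnb2 alone, with plate 1 between 21.6 and 25.4 and plate 2 between 26.4 and 30.3 CPM. The share over all genes was 12.8%.

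**Figure D4:**
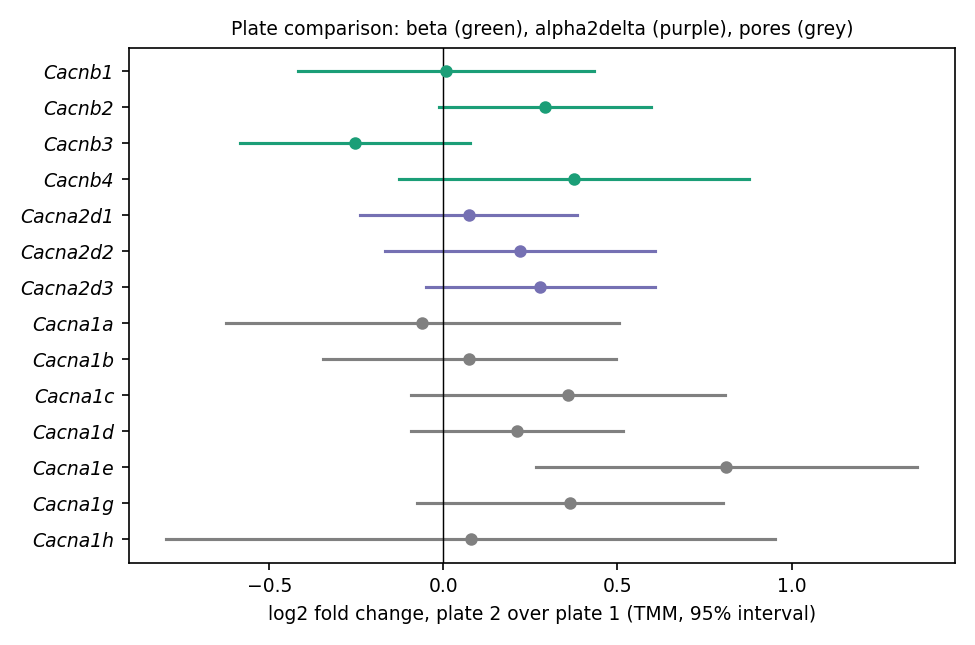
Log2 fold change of plate 2 over plate 1 from edgeR with TMM scaling for the 7 tested β and α2δ genes and 7 pore genes, with points for the estimates and lines for the 95% intervals. The interval of each β and α2δ gene includes 0, and Cacna1e at 0.81 has the largest estimate, with an adjusted p of 0.166.

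Within plate 2, the middle-total library differed from the mean of the other 2 in opposite directions for different subunits. On the log2 scale Cacna2d2 was higher by 0.48, Cacnb1 by 0.42 and Cacnb3 by 0.25. Cacnb2 was at -0.06, and Cacnb4, Cacna2d3 and Cacna2d1 were at -0.27, -0.31 and -0.40. Over all 12360 genes that reached 1 CPM throughout, the central 90% of this difference lay between -1.14 and 0.52. Over the final 200 bases of the transcript, GC content was 55.5% for Cacnb1, 53.0% for Cacnb3 and 45.0% for Cacna2d2, the 3 genes that were higher in this library. It was 43.5% for Cacnb2, 35.5% for Cacna2d3, 26.5% for Cacnb4 and 25.5% for Cacna2d1, the 4 that were not. The GC content depends on the transcript chosen, most of all for Cacna2d2, where it ranged from 32.5% to 60.5% over 6 transcripts. Between the highest- and lowest-total libraries of plate 2 the same 7 genes differed by -0.09 to 0.17. The part of base composition in these differences was not tested.

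**Figure D5:**
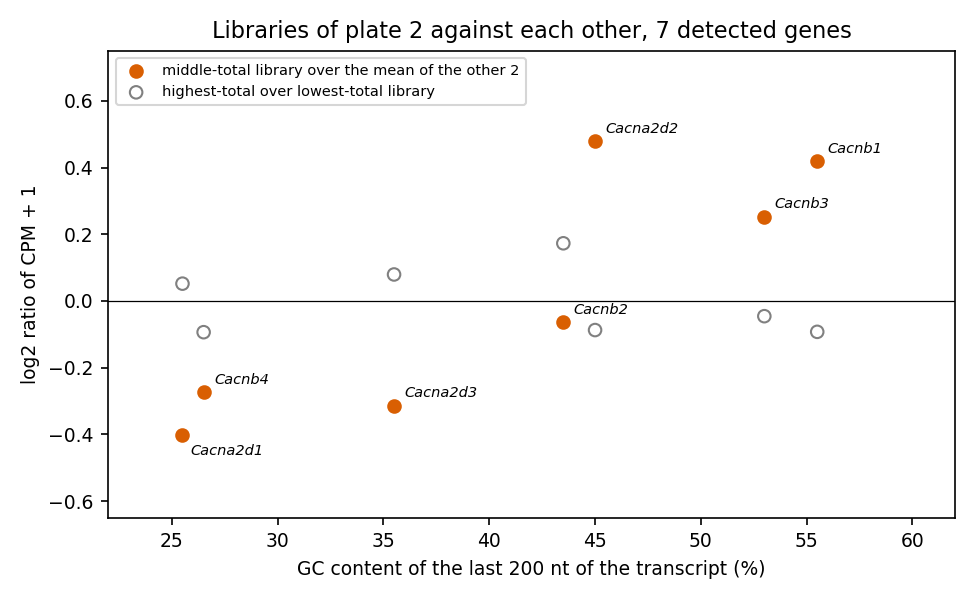
Log2 ratio of CPM + 1 between plate 2 libraries against the GC content (%) over the final 200 nt of each chosen transcript, for the 7 detected genes. Filled points compare the middle-total library with the mean of the other 2 and run from -0.40 for Cacna2d1 to 0.48 for Cacna2d2, and open points compare the highest- with the lowest-total library and stay between -0.09 and 0.17.

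Other genes of the channel complex were read from lists. Of the 3 T-type pore genes, whose channels do not need these auxiliary subunits, Cacna1g had 8.75 ± 2.55 CPM and Cacna1h 1.08 ± 0.31 CPM (each SD, n = 6). Of 9 genes for γ subunits and relatives, 5 had at least 1 CPM in every library. Cacng4, which encodes a regulator of AMPA receptors, was highest with 42.1 ± 3.34 CPM, followed by Cacng7 with 8.90 ± 2.25 and by Cacng5, Cacng3 and Cacng8 with 5.43 ± 1.32, 5.42 ± 0.86 and 4.96 ± 0.73 CPM (each SD, n = 6). Cacng1, the γ subunit of the skeletal muscle channel, had 1 count in all.

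Of 15 genes whose products are known to bind β subunits or to act on the channel with them, 8 had at least 1 CPM in every library. Rem2, a small GTPase of the family that binds β subunits and inhibits the current, had 41.8 ± 5.33 CPM (SD, n = 6), whereas its relatives Rrad, Gem and Rem1 had 1.01 ± 0.26, 0.808 ± 0.432 and 0.243 ± 0.208 CPM (each SD, n = 6). Camk2b and Rimbp2, the latter a scaffold that ties calcium channels to release sites, had 118.0 ± 16.9 and 105.3 ± 17.4 CPM (each SD, n = 6). The active zone gene Rims2 and the adaptor gene Stac followed at 32.4 ± 4.37 and 28.7 ± 3.84 CPM, and Camk2g, Camk2d and Camk2a had between 4.59 and 13.4 CPM on average. Of 7 genes related to or known to bind α2δ subunits, Thbs1, a secreted thrombospondin, had 26.5 ± 9.82 CPM. Cachd1, an α2δ-like protein, had 6.86 ± 1.38 CPM, Thbs3 had 2.89 ± 0.93 and the endocytic receptor gene Lrp1 2.01 ± 0.43 CPM (each SD, n = 6). None of these list genes passed the plate comparison by edgeR with all 6 libraries (0 higher and 0 lower of 7 pore, 5 γ, 11 β-partner and 4 α2δ-partner genes tested). In that fit 0.185% of all genes passed, against 1911 of 15894 genes without the middle-total library. With all 6 libraries, 2 of these 27 list genes had an unadjusted p under 0.05 (7.41%, against 16.1% of all genes). They were Cacna1e at 0.81 and Cacng7 at -0.61 on the log2 scale.

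Genes whose level followed the leading members most closely over the 6 libraries were found by Pearson's r of log2(TMM-scaled CPM + 1) among the 8657 genes averaging 10 CPM or more. For Cacna2d2 these were Adgrl1 (r = 0.998), Arfgap1 (0.994) and Tsc2 (0.993), and for Cacnb2 they were Rab3gap1 (0.992), Trp53bp1 (0.990) and 9430015G10Rik (0.981). These values describe 6 points from 2 plates, and 121 and 213 genes had an r over 0.9. The middle-total library, which stands apart over many genes, was the highest for Cacna2d2. It had 205.2 CPM with TMM scaling, against at most 164.5 CPM on plate 1. The r without this library was not computed, so the values for Cacna2d2 may rest on it.

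Annotated genes overlap most of the 8 on either strand. The exons of Cacnb4 overlap A430018G15Rik on the opposite strand, which had 1.33 CPM on average against 6.69 CPM for Cacnb4. The opposite-strand genes whose exons meet those of Cacnb1, Cacnb2 and Cacna2d2 had at most 0.00996 CPM on average. The strand setting of the counting is not given in the sources used here, so reads of such pairs may not have been kept apart.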

How the data were processed

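The authors trimmed the reads with Trim Galore 0.6.4 and assigned them with Salmon 1.5.1 to GENCODE M23 transcripts with GRCm38 as decoy, without length correction. Gene-level sums were made with Tximeta. The authors deposited expected counts, which are not normalized. The 3 plate 1 columns were matched to replicates 1, 2 and 3.

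Counts were divided by the column total (CPM) and rounded for count models. Symbols and positions are from GENCODE M21 (GRCm38), which held 54107 of 54281 identifiers. Within each library, pairs of genes were compared on the log2(CPM + 1) scale by exact two-sided sign-flip tests with Benjamini-Hochberg adjustment. For plate 2 against plate 1, the robust quasi-likelihood test of edgeR 4.0.16 was run after filterByExpr and TMM scaling (Benjamini-Hochberg over 15669 genes, threshold 0.05). DESeq2 1.42.0, limma-voom 3.58.1, other filters, scalings and pseudocounts, and omission of each library were alternatives. On simulated data for this comparison (15600 genes or more, 200 changed 4-fold), edgeR, limma-voom and DESeq2 each recovered 100% of the changed genes. Of their calls 3.38%, 4.76% and 9.06% were false, in that order. In the simulation every gene had the same dispersion, no library stood apart and no change was below 4-fold. These shares therefore do not carry over to the real plate comparison, where the estimates for the β and α2δ genes were smaller. Python 3.11.15 and R 4.3.3 were used.

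Named by rule were all 8 genes, genes of the pore, γ and partner lists averaging 1 CPM or more, and the 3 genes most like the leading gene of each family. Other genes (markers, list genes below that level, overlapping genes and Bc1) were named after their values were seen. Members and lists were chosen with earlier results of these data known. GLP-1 secretion, siRNA, L-cell and organoid data were not analysed here.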

Additional observations from a re-analysis of the deposited data

Results flagged for a closer look

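Of 20 values (the level and family share of the 7 detected genes, and the sums and ratios of the families), 2 had a library far from the other 5, by its gap to the nearest library over the whole range. Chance gives about 1 in 20. Cacnb1 was highest in the middle-total library of plate 2, at 12.4 CPM against 7.92 to 9.33 CPM (ratio 0.684). The share of Cacna2d1 in the α2δ sum was lowest in the same library, at 34.7% against 44.1% to 49.5% (ratio 0.633), and its mean was 46.6% without that library and 44.6% with it.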

How the results depend on the processing

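TMM scaling, DESeq2's size factors, pseudocounts of 0.1 and 5 CPM and the addition of T-type pores left every within-library comparison on its side of the threshold. For a gene higher in 6 of 6 libraries this is fixed by the arithmetic. With 5 libraries the smallest p is 0.0625, so omissions of a library give values and no test. Over these, Cacna2d2 against Cacna2d1 ranged from -0.029 (without the middle-total library) to 0.16. Cacnb2 against Cacnb3 ranged from -0.055 to 0.14 on the log2 scale and turned to -0.011 and -0.055 without the lowest- and highest-total library of plate 2. No other pair changed sign.

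Genes that passed between the plates numbered 29 with edgeR (2 higher and 27 lower on plate 2), 10 with limma-voom, 579 with DESeq2 (73.4% lower), 545 without a filter on low counts, and 1482 without scaling beyond the total count (4.79% lower, against 93.1% with TMM). When a library was left out, the number ranged from 0 by edgeR (without plate 1 replicate 1 or the lowest-total library of plate 2, where 1611 and 2121 had an unadjusted p under 0.05) to 1911 (without the middle-total library). The cause was not tested. Of the β and α2δ genes, Cacnb2 was called under 1 of these settings, at 0.56 without scaling, and the others under none. Small changes turned sign: Cacnb1 was at -0.015 with DESeq2, -0.017 with limma-voom, -0.011 with the replicate block, -0.039 without plate 1 replicate 1 and -0.21 without the middle-total library, and Cacnb3 at 0.015 without scaling. Over omissions of a library, Cacnb1 ranged from -0.21 to 0.11, Cacna2d1 from -0.010 (without plate 1 replicate 2, and -0.0079 without the highest-total library) to 0.16, and Cacna2d2 from -0.0034 (without the middle-total library) to 0.34.

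The sample titles number the libraries 1 to 6, but the columns of each plate carry the numbers 1 to 3. Between plates, deviations from the plate mean correlated at 0.080, 0.082 and 0.13 for libraries with the same column number (across 15669 genes, which are not independent), and each library correlated best with its own number. With so few libraries a plate such a match can arise by chance, and how often was not tested. As a replicate block, an alternative chosen after seeing the data, the column number gave 5 genes in place of 29 by edgeR and none of the β and α2δ genes (lowest adjusted p = 0.318, 2536 of all genes at an unadjusted p under 0.05).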
